A study of Mus musculus with 17 samples.

Results

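The cathepsin family was followed in the hearts of mice that accumulate mitochondrial DNA (mtDNA) mutations in heart muscle. The members are the 10 genes Ctsa, Ctsb, Ctsc, Ctsd, Ctsh, Ctsk, Ctsl, Ctso, Ctss and Ctsz, found by gene name among the 56748 genes of the deposited count table. All 10 passed the filter on low counts, which 16195 genes passed in all. Bulk RNA-seq was available for 9 hearts of Polg hMut mice (hMut) and 8 control hearts (Ctrl), with 1 poly(A) library per heart. RNA came from frozen heart tissue, and which chambers it held is not given in the sources used here. The mice were 12 to 16 months old and of C57BL/6N background. Mice of the hMut group were homozygous for Polg iMut, an allele in which a floxed wild-type Polg cDNA with a stop cassette lies upstream of a mutated exon, so that cre exposes a proofreading-deficient mtDNA polymerase. They also carried 1 copy of Ckmm-cre, which is driven by the muscle creatine kinase promoter and acts in heart and skeletal muscle cells, not in the fibroblasts, endothelium or immune cells of the heart. The genotype of the Ctrl hearts, and whether they carried the iMut allele or cre, is not given in the sources used here.

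Cathepsins are proteases that work mainly in the acid interior of lysosomes, where they take apart proteins that arrive by endocytosis and autophagy. They are made as inactive precursors, are sorted to lysosomes largely through mannose 6-phosphate receptors, and lose their propeptide there. Most members are cysteine proteases (B, C, H, K, L, O, S and Z), whereas cathepsin D is an aspartic protease and cathepsin A a serine carboxypeptidase. B, D and L are found in nearly all cells including cardiomyocytes, S is typical of macrophages and other antigen-presenting cells, and K is best known from osteoclasts, where it degrades collagen.

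Short promoter sequences are shown for 5 members because they hold motifs of known regulators of lysosomal or interferon-responsive genes. RefSeq promoter windows (GRCm38.p6, 250 bases before to 50 bases after a start) were matched for 8 of the 10 members, in 9 windows, 2 of them for Ctsa. Ctsb and Ctsh had no entry. Each stretch is 30 bases long. Positions count from 1 at the start and from -1 upstream of it, sequences are written 5′ to 3′ on the gene's strand, and capitals mark the motif. The first 4 stretches hold the E-box CACGTG, in Ctsa and the second Ctsd stretch as the longer TCACGTGA, the core of the element bound by TFEB, a transcription factor of lysosomal genes. The last 2 hold the interferon element, the letters GAAA written a second time after 2 bases of any kind, which is the core of interferon-stimulated response elements.
Ctsa, chr2:164833755-164833784, plus strand, from position -18: aactgTCACGTGAtgcagatgcTCACGTGA
Ctsd, chr7:142388048-142388077, minus strand, from position -250: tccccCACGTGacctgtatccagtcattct
Ctsd, chr7:142387908-142387937, minus strand, from position -110: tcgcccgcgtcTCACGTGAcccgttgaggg
Ctsl, chr13:64370741-64370770, minus strand, from position -250: gcggcgttagaagcCACGTGctgatctaaa
Ctss, chr3:95526756-95526785, plus strand, from position -30: tctttaaatGAAACCGAAAtgaaagttcac
Ctso, chr3:81932602-81932631, plus strand, from position 2: gtgggcggagccaaGAAACCGAAAGAGAAA

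Both strands were searched. CACGTG was present in 3 of the 9 member windows and in 7.15% of all 32851 promoter windows, and TCACGTGA, which contains it, in 2 of 9 and in 0.974%. The interferon element was present in 2 of 9 member windows and in 3.44% of all windows, and Ctso held it in 2 overlapping copies. The amino acid response element TGATGNAAT was found in 0 of 9 member windows and in 0.965% of all. Matched to GRCm39, the start base of the Ctsl window lay 143 bases from the nearest annotated transcript start and 370 bases inside its longest transcript. The start base lay up to 915 bases inside longer annotated transcripts for the Ctsa window shown, up to 211 for Ctsd, up to 134 for Ctss and up to 35 for Ctso. A match is a description of the letters, and no binding was measured.

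Per gene length, Ctsd was the most abundant cathepsin of the control heart and Ctso the least. In Ctrl hearts Ctsd stood at 488 ± 41.1 TPM, a level scaled to gene length and library size (SD, n = 8), Ctsb at 202 ± 13.7 TPM and Ctsl at 53.5 ± 4.75 TPM. Ctsa followed at 44.4 ± 4.67 TPM, Ctsz at 40.8 ± 2.71 TPM and Ctss at 32.4 ± 6.75 TPM. At the lower end were Ctsc at 17.1 ± 2.07 TPM, Ctsh at 15.1 ± 0.694 TPM, Ctsk at 8.49 ± 1.45 TPM and Ctso at 8.24 ± 1.18 TPM. The ranges over the Ctrl hearts were separate for Ctsd and Ctsb, for Ctsb and Ctsl and for Ctsh and Ctsk, and the other neighbours in this order overlapped. TPM was used to order genes within hearts and for the share that each member takes of the summed member TPM of a heart. Levels are compared between hearts in CPM, counts scaled to library size with TMM factors but not to gene length. The order by TPM rests on the deposited gene lengths, such as 2351 bases for Ctsd and 6051 for Ctsb. By mean CPM over the Ctrl hearts both ends of the order differed. Ctsb, at 582 CPM, stood above Ctsd at 545 CPM, and Ctsk, at 6.08 CPM, below Ctso at 20.1 CPM.

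**Figure D1:**
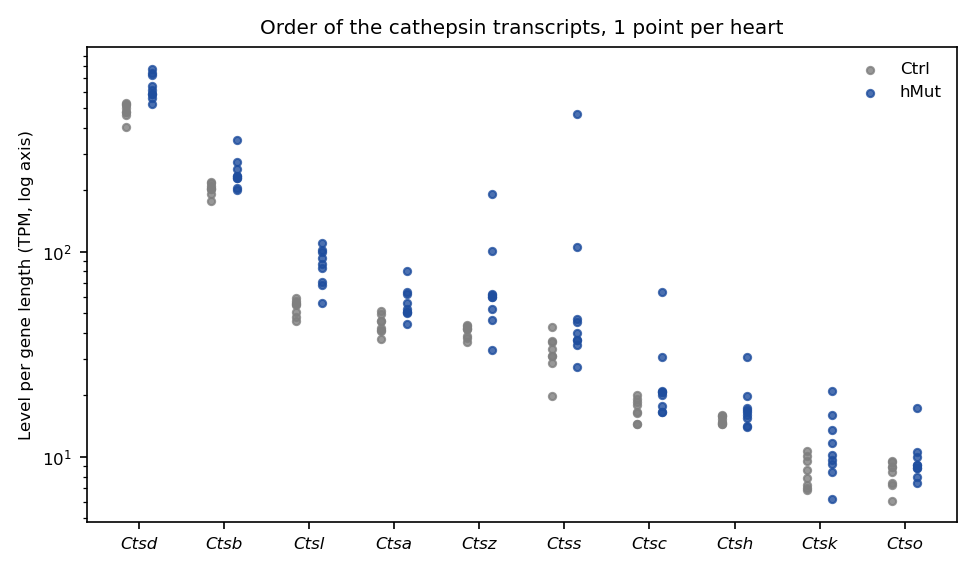
Level of each cathepsin transcript per gene length (TPM, log axis), with 1 point per heart, Ctrl in grey and hMut in blue, ordered by the Ctrl mean. Ctsd and Ctsb stand above all others in the Ctrl hearts, and the highest hMut points of Ctss, Ctsz and Ctsc lie far above the rest of their own group.

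Total counts lay between 34425783 and 46486964 in Ctrl hearts and between 32915159 and 40175122 in hMut hearts, so that every member was counted well above a floor of 3 counts in each heart. Genes encoded in mtDNA took 23.53% to 30.91% of them in Ctrl and 15.94% to 23.02% in hMut. The mean ± SD of Polg, the targeted gene, was 34.7 ± 7.31 CPM in Ctrl hearts and 57.9 ± 6.08 CPM in hMut hearts, of which 8 exceeded all Ctrl hearts. Libraries hMut 6 and hMut 9 stood apart in marker genes of other cell types. The summed macrophage markers were 1684.5 CPM in hMut 6 and 871.1 CPM in hMut 9, against 419.2 to 534.69 CPM in the other 7 hMut hearts and 339.48 to 494.54 CPM in Ctrl. The summed cardiomyocyte markers were 49706 and 47138 CPM in these 2 hearts, 62112 to 75867 CPM in the other 7 and 63824 to 77520 CPM in Ctrl, and all 14 were detected. Member fold changes are therefore given with and without these 2 hearts.

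The question put to the members was whether mtDNA mutagenesis in heart muscle changed their transcripts. Ctsl and Ctsd rose in hMut hearts, 2 of the 10 members, and 0 fell (edgeR's quasi-likelihood test, adjusted p under 0.05 over all genes tested). Over all genes tested, 4.62% passed this threshold, 3.48% higher and 1.14% lower in hMut. The median log2 fold change of the members was 0.21, beside 0.00225 over all genes tested. Without hMut 6 and hMut 9, 1 member passed and the median of the members was 0.06, and without hMut 6 alone the median was 0.12. In bulk hearts, fewer cells of a type and less RNA per cell cannot be told apart, nor can more of either.

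**Figure D2:**
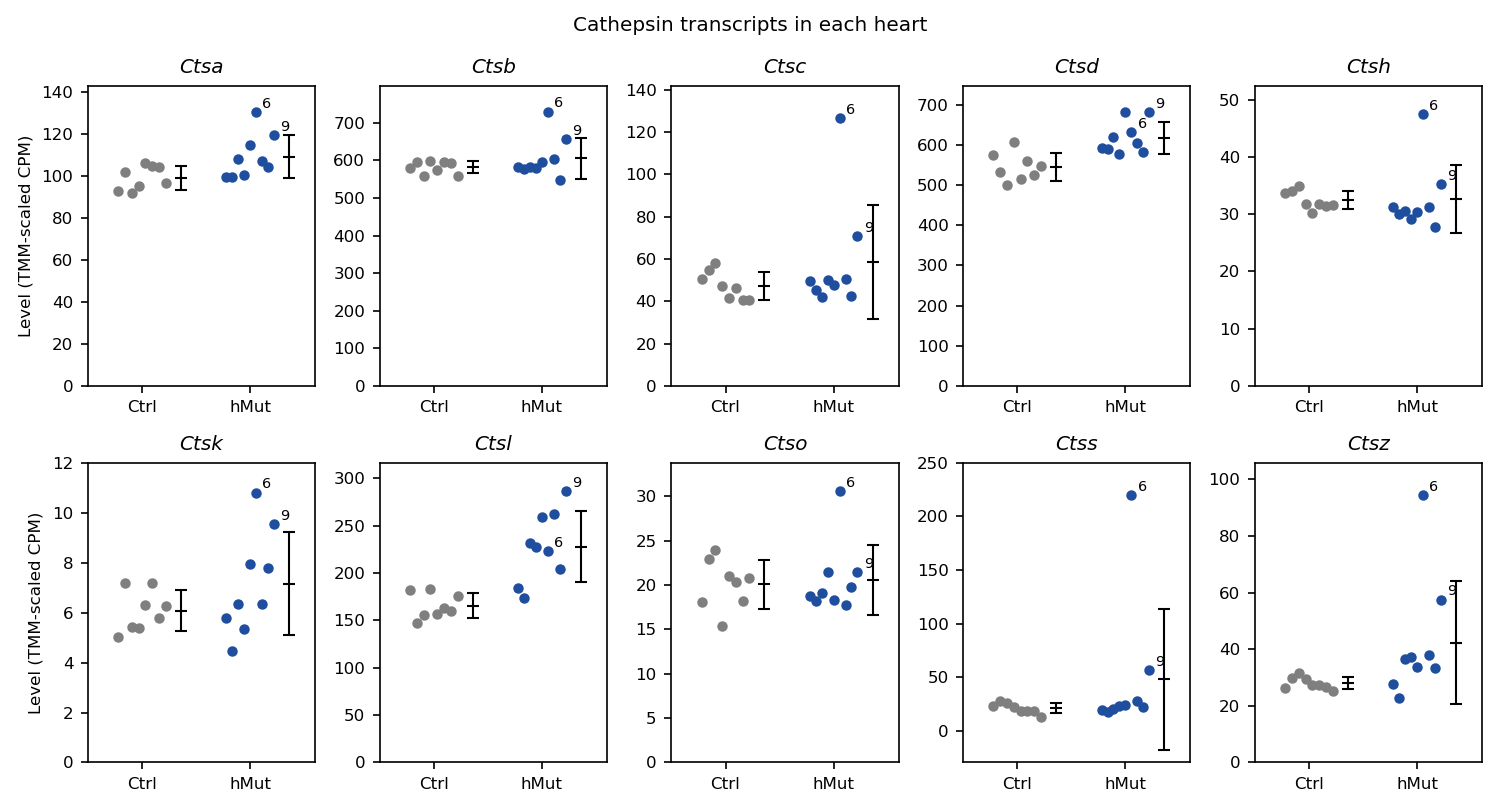
Level of each cathepsin transcript (TMM-scaled CPM, axis from 0 or below) in 8 Ctrl hearts (grey) and 9 hMut hearts (blue), with the mean and SD beside each group and hMut 6 and 9 numbered. For Ctsl, 8 of 9 hMut hearts lie above every Ctrl heart, whereas the hMut mean of Ctss is carried by hMut 6 at 219.9 CPM.

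Ctsl, an endopeptidase of the lysosome that also processes other lysosomal enzymes, showed the firmest change. It lies on the minus strand of chromosome 13 (GRCm39, 64507151 to 64518704). Ctrl hearts held from 147 to 183 CPM with a median of 161 CPM, and hMut hearts from 173 to 286 CPM with a median of 228 CPM. All hMut hearts but hMut 2, at 173 CPM, lay above the highest Ctrl heart, although hMut 1, at 183.8 CPM, did so by less than 1 CPM. The mean ± SD was 165 ± 13.2 CPM over the 8 Ctrl hearts and 228 ± 37.3 CPM over the 9 hMut hearts. The log2 fold change was 0.46 (SE 0.09, 95% interval 0.28 to 0.65) with an adjusted p of 0.00539 in edgeR's quasi-likelihood test. Heart hMut 9 was the highest of all and hMut 6, at 222.9 CPM, stood in the middle of its group. Without these 2 hearts the log2 fold change was 0.41 (SE 0.08, adjusted p = 0.0101 in edgeR's test).

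Ctsd, the main aspartic protease of lysosomes, rose by a small amount. It lies on the minus strand of chromosome 7 (GRCm39, 141929648 to 141941775). Its level was 499 to 608 CPM in Ctrl (median 539 CPM) and 578 to 682 CPM in hMut (median 604 CPM). The groups overlapped, with 4 of 9 hMut hearts (hMut 3, 5, 6 and 9) above every Ctrl heart and none below. The log2 fold change was 0.18 (SE 0.05, 95% interval 0.08 to 0.28) with an adjusted p of 0.0441 in edgeR's quasi-likelihood test. This call was lost when any of 12 single hearts was left out, Ctrl 1, 2, 3, 5, 6, 7 and 8 and hMut 3, 5, 6, 7 and 9, with adjusted p up to 0.0873 and a log2 fold change between 0.16 and 0.19. Without both hMut 6 and hMut 9 the log2 fold change was 0.15 (adjusted p = 0.0938 in edgeR's test).

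Ctsz (chromosome 2, 174269286 to 174280832, minus strand of GRCm39), a carboxypeptidase also called cathepsin X, was high in most hMut hearts without passing the test. Ctrl hearts lay closely together, between 25.4 and 31.4 CPM with a median of 27.4 CPM, and hMut hearts ran from 22.7 to 94.4 CPM with a median of 36.5 CPM. Of the 9 hMut hearts 7 exceeded every Ctrl heart, hMut 1 lay within the Ctrl range, and hMut 2 was the lowest of all 17. The log2 fold change was 0.60 (SE 0.21, 95% interval 0.15 to 1.04, adjusted p = 0.101 in edgeR's quasi-likelihood test). Without hMut 2 it was 0.68 (adjusted p = 0.0373), and DESeq2 gave 0.59 (adjusted p = 0.0426). Without hMut 6 it was 0.36 (adjusted p = 0.122), and without hMut 6 and hMut 9 0.23 (adjusted p = 0.187). Ctsz shares 10 bases with Nelfcd on the opposite strand, and whether counting used the strand is not given in the sources used here.

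Ctss (chromosome 3, 95434097 to 95463714, plus strand of GRCm39), which trims the invariant chain from MHC class II in antigen-presenting cells, had the largest fold change and the widest spread among the 10 members with all hearts in edgeR's fit. Without hMut 6 its fold change was below that of Ctsl. Ctrl hearts held 13.0 to 27.5 CPM with a median of 20.6 CPM. In hMut the lowest heart was at 17.8 CPM and the median at 22.8 CPM, but hMut 6 reached 219.9 CPM and hMut 9 56.7 CPM. The other 7 hMut hearts, from 17.8 to 27.7 CPM, overlapped the Ctrl range almost wholly. The log2 fold change of 1.19 (SE 0.47, 95% interval 0.20 to 2.19, adjusted p = 0.132 in edgeR's quasi-likelihood test) became 0.34 without hMut 6 (adjusted p = 0.352). It was 0.08 without hMut 6 and hMut 9 (adjusted p = 0.797). With no heart left out, DESeq2 gave 0.30 and limma-voom 0.26, below their values for Ctsl and Ctsz, and the replicate block gave 0.43. By default DESeq2 replaces counts that it flags as outlying, and the quality weights of limma-voom lower the weight of outlying hearts. In the replicate block hMut 9 has no same-numbered Ctrl heart and does not inform the difference. These values therefore need not count every heart in full, and whether counts of hMut 6 were replaced was not examined. The coefficient of variation of Ctss was 137% in hMut, 22.2% in Ctrl and 14.5% in hMut without those 2 hearts, where Ctsk (20.1%), Ctsz (17.2%) and Ctsl (15.8%) varied more.

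Ctsc (chromosome 7, 87927293 to 87960096, plus strand of GRCm39), also called dipeptidyl peptidase 1, activates granule serine proteases of leukocytes. It ran from 40.5 to 57.9 CPM in Ctrl (median 46.7 CPM) and from 42.2 to 126 CPM in hMut (median 49.6 CPM). Only hMut 6, at 126 CPM, and hMut 9, at 70.8 CPM, left the Ctrl range. Its log2 fold change was 0.30 (SE 0.19, adjusted p = 0.312 in edgeR's test), 0.07 without hMut 6 and -0.02 without both hearts. Of the 10 listed granule proteases and granule proteins, 5 were tested and 0 passed, with a median log2 fold change of 0.17.

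Ctsk (chromosome 3, 95406567 to 95416673, plus strand of GRCm39), the collagen-degrading member, was at 5.01 to 7.21 CPM in Ctrl (median 6.05 CPM) and at 4.46 to 10.8 CPM in hMut (median 6.36 CPM). Hearts hMut 5, 6, 8 and 9 lay above every Ctrl heart and hMut 2 below, so that the groups overlapped on both sides. The log2 fold change was 0.24 (SE 0.15, adjusted p = 0.316 in edgeR's test), 0.14 without hMut 6 and 0.05 without hMut 6 and hMut 9 (adjusted p = 0.558 and 0.866). Ctsk and Ctss are neighbours on the plus strand of chromosome 3, with 17423 bases between them, but hMut 6 stood 1.79-fold above the Ctrl median for Ctsk and 10.7-fold for Ctss. Among 7 genes of collagens and their matrix, 1 rose, Eln, which encodes elastin, at 52.3 ± 30.2 CPM in hMut and 24.9 ± 5.86 CPM in Ctrl (log2 fold change 1.07, adjusted p = 0.0332 in edgeR's test). Without hMut 6 and hMut 9, 0 of the 7 passed, and the same held when Ctrl 5, 6, 7 or 8 was left out alone.

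Ctsa and Ctsb did not pass the test. Ctsa (chromosome 2, 164674793 to 164682952, plus strand of GRCm39) encodes the protective protein of the β-galactosidase and neuraminidase complex. It was at 92.0 to 106 CPM in Ctrl and 99.5 to 130 CPM in hMut, with 5 of 9 hMut hearts above every Ctrl heart (log2 fold change 0.14, 95% interval 0.02 to 0.26, adjusted p = 0.131 in edgeR's test). Without hMut 6 and hMut 9 this was 0.08 (adjusted p = 0.341). Ctsb (chromosome 14, 63359911 to 63383372, plus strand of GRCm39) encodes an abundant lysosomal protease with both endo- and exopeptidase action. It was at 558 to 599 CPM in Ctrl and 548 to 730 CPM in hMut (log2 fold change 0.06, 95% interval -0.05 to 0.16, adjusted p = 0.471 in edgeR's test). For Ctsb, hMut 6, 7 and 9 lay above the Ctrl hearts and hMut 8 below them, and the log2 fold change was 0.02 without hMut 6 and -0.0016 without hMut 6 and hMut 9. Ctsa shares 1515 bases with Pltp and 584 with Neurl2, and Ctsb 774 with Fdft1, each on the opposite strand, and all 3 partners were themselves counted, so these counts are uncertain. Overlaps with features at or near 0 counts were found for Ctsd (6757 bases with Gm49369, same strand), Ctsl (1971 bases with Gm47123, opposite strand, and 395 with the pseudogene Gm49230, same strand) and Ctss (557 bases with the pseudogene Hmgb1-ps5, same strand). How reads in shared bases were assigned is not given in the sources used here, so the counts of these members are uncertain to that extent.

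Ctsh and Ctso showed no difference that the test could detect. Ctsh (chromosome 9, 89936205 to 89958142, plus strand of GRCm39), an aminopeptidase, was at 30.2 to 34.9 CPM in Ctrl (median 31.8 CPM) and 27.8 to 47.5 CPM in hMut (median 30.5 CPM). Its log2 fold change of 0.0080 (95% interval -0.17 to 0.18, adjusted p = 0.962 in edgeR's test) combined 2 hMut hearts above every Ctrl heart, hMut 6 and hMut 9, with 3 below, and it turned to -0.11 without hMut 6 and hMut 9. Ctso (chromosome 3, 81839908 to 81864032, plus strand of GRCm39), a cysteine protease, was at 15.3 to 23.9 CPM in Ctrl (median 20.6 CPM) and 17.7 to 30.6 CPM in hMut (median 19.1 CPM). Heart hMut 6 alone left the Ctrl range of Ctso, and the log2 fold change was 0.04 (95% interval -0.18 to 0.26, adjusted p = 0.839 in edgeR's test) with all hearts and -0.07 without hMut 6 and hMut 9.

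**Figure D3:**
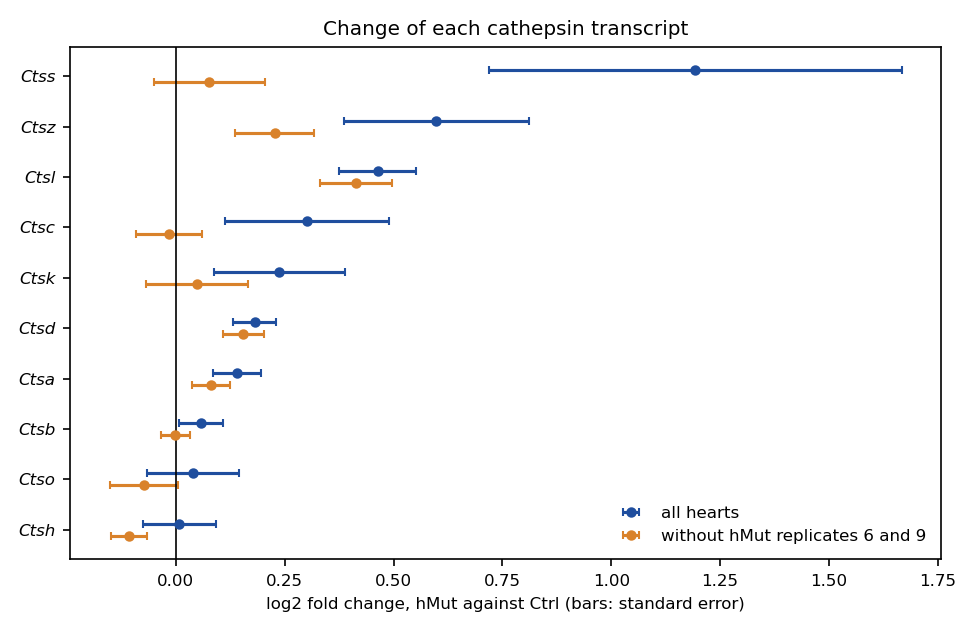
Log2 fold change of each cathepsin in hMut against Ctrl, with bars of 1 standard error, from all hearts (blue) and without hMut replicates 6 and 9 (orange). Ctsl keeps its value, 0.46 and 0.41, whereas Ctss falls from 1.19 to 0.08 and Ctsc, Ctsb, Ctso and Ctsh come to lie at or below 0.

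The hearts differed in how many members were high. Heart hMut 6 lay above every Ctrl heart for 10 of 10 members and was the highest of all 17 hearts for 8, the exceptions being Ctsd (hMut 5) and Ctsl (hMut 9). Heart hMut 9 lay above every Ctrl heart for 9 members, all but Ctso. Hearts hMut 5 and hMut 7 did so for 5 members each, hMut 3 for 4, hMut 8 for 3, hMut 4 for 2, hMut 1 for Ctsl alone and hMut 2 for 0. The share of all genes tested that lay above every Ctrl heart was not counted per heart, so these counts have no background beside them. In hMut 6, 24 of 35 lysosomal hydrolases and 9 of 22 lysosomal membrane proteins did so, and in hMut 9, 16 and 9. The members were not raised alike in hMut 6, where Ctss was 10.7-fold, Ctsz 3.44-fold and Ctsc 2.71-fold the Ctrl median, but Ctsd 1.17-fold, Ctsb 1.24-fold and Ctsl 1.38-fold. The make-up of the family therefore shifted in that heart. Ctsd made up 37.1% of the summed member TPM in hMut 6, against 53.6% ± 1.59 in Ctrl (SD, n = 8), and Ctss made up 22.4%, against 3.57% ± 0.784. In hMut 9 these shares were 50.004% and 7.19%.

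Some marker lists of other cell types were high in these 2 hearts, and others were not. The smooth muscle and pericyte sum was 1044 CPM in hMut 6, below the Ctrl range of 1217 to 1507 CPM, and 1449 CPM in hMut 9. The endothelial sum was 0.95-fold the Ctrl median in hMut 6 and 1.20-fold in hMut 9. The summed macrophage markers were 3.76-fold the Ctrl median in hMut 6 and 1.95-fold in hMut 9, with 17 of 18 markers above every Ctrl heart in both and 0 of 18 at zero. Cd14, Fcgr1 and C1qa had the smallest adjusted p of that list, 0.0683, 0.103 and 0.113 in edgeR's test, and 0 of 18 passed (median log2 fold change 0.60). MHC class II genes with the invariant chain Cd74, whose protein is the substrate of cathepsin S, summed to 2939 CPM in hMut 6 and 555 CPM in hMut 9, against 214 to 438 CPM in Ctrl and 234 to 337 CPM in the other 7 hMut hearts. None of the 9 tested genes of that list passed, with H2-DMb1, H2-Ab1 and H2-Eb1 at adjusted p of 0.213, 0.225 and 0.233 in edgeR's test. Summed fibroblast markers were 2360 and 1863 CPM in hMut 6 and hMut 9, 1046 to 1380 CPM in the other 7 and 1068 to 1253 CPM in Ctrl, and lymphoid markers 107.9 and 17.6 CPM against 5.02 to 57.6 CPM in Ctrl. Of 12 fibroblast and 14 lymphoid genes tested 0 passed, with median log2 fold changes of 0.37 and 0.78. The part of these markers in the levels of Ctss, Ctsz and Ctsc was not tested, nor was that of cell make-up in the level of Ctsl. In hMut 2, the hMut heart with the lowest Ctsl, the cardiomyocyte markers summed to 75867 CPM, the highest of the hMut hearts. In hMut 9, with the highest Ctsl, this sum was the lowest, 47138 CPM. Other hearts went differently. The sum was nearly as low in hMut 6, 49706 CPM, where Ctsl stood in the middle of its group. Of the Ctrl hearts, Ctrl 4 had both the highest sum, 77520 CPM, and the highest Ctsl, 183.17 CPM. Whether the sum and Ctsl go together was not tested.

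**Figure D4:**
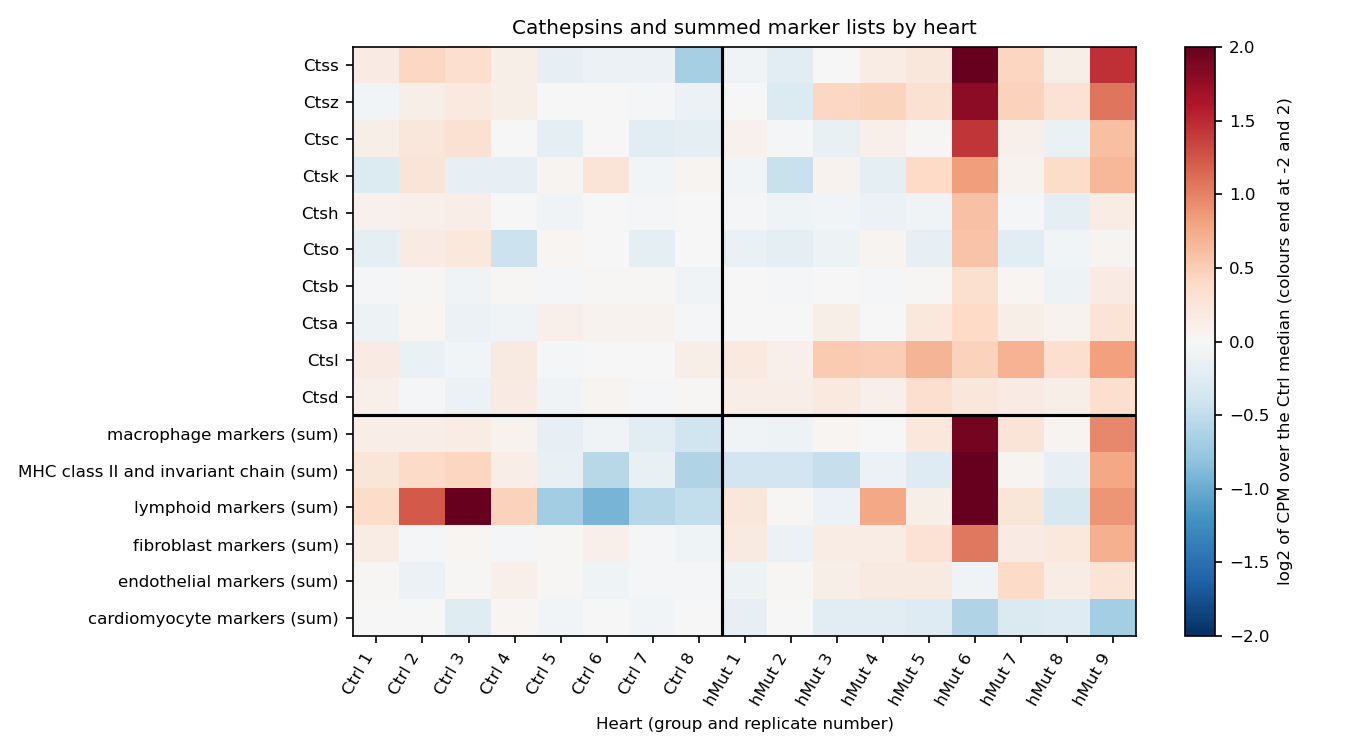
Log2 of CPM over the Ctrl median in each of 17 hearts (columns, Ctrl left and hMut right of the line), for the 10 cathepsins above the line and 6 summed marker lists below it, with colours ending at a log2 of 2 in either direction. Heart hMut 6 is raised for all cathepsins and for macrophage and MHC class II sums. Heart hMut 9 is less raised for most of these but more for Ctsl and Ctsd, and Ctsl is raised across most hMut hearts.

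Genes that act on cathepsins were described beside the members. Of 18 genes for sorting and maturation, 1 rose and 1 fell. Ap1s1, a subunit of the AP-1 adaptor at the trans-Golgi, was at 33.9 ± 3.56 CPM in hMut and 28.9 ± 1.71 CPM in Ctrl (log2 fold change 0.23, adjusted p = 0.0385 in edgeR's test). Gga2, which carries mannose 6-phosphate receptors from the Golgi, was at 47.7 ± 5.22 and 58.2 ± 3.76 CPM (log2 fold change -0.29, adjusted p = 0.0133), and 6 of 9 hMut hearts lay below every Ctrl heart. Ap1m1, of the same adaptor, had an adjusted p of 0.0918, and the median of the list was -0.0068. Without hMut 6 and hMut 9, Gga2 passed (-0.26, adjusted p = 0.0312) and Ap1s1 did not. Ap1s1 was also not called when Ctrl 1, 2, 3, 5, 7 or 8, or hMut 3, was left out alone.

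Among the inhibitors, 9 of 18 genes in the table were tested and 0 passed, with a median log2 fold change of 0.17. Cstb, cystatin B, an inhibitor of cathepsins inside cells, was at 11.6 ± 2.93 CPM in hMut and 8.79 ± 0.859 CPM in Ctrl (log2 fold change 0.40, adjusted p = 0.0635 in edgeR's test), with 8 of 9 hMut hearts above every Ctrl heart. Cst3, the secreted cystatin C, had a log2 fold change of 0.17 (adjusted p = 0.107) and Serpinb6a of 0.12 (adjusted p = 0.160).

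The V-ATPase, the proton pump that acidifies lysosomes, had 2 of 18 subunit genes higher and 0 lower, with a median log2 fold change of 0.05. Atp6v1h, a regulatory subunit of its catalytic domain, was at 45.9 ± 11.5 CPM in hMut and 27.5 ± 1.12 CPM in Ctrl (log2 fold change 0.74, SE 0.12, adjusted p = 0.00186 in edgeR's test), with 8 of 9 hMut hearts above every Ctrl heart. Atp6v0d1, of the membrane domain, differed by 0.21 (adjusted p = 0.0423) and Atp6v0e by 0.17 (adjusted p = 0.118). Without hMut 6 and hMut 9, Atp6v1h alone passed (0.59, adjusted p = 0.00205). The count of this list also fell to 1 when any single Ctrl heart was left out.

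Other lysosomal genes were close to the background. Of 35 hydrolases and related peptidases 1 rose, Galc, the galactosylceramidase (log2 fold change 0.32, adjusted p = 0.0470 in edgeR's test), and 0 passed without hMut 6 and hMut 9. The count of this list was also 0 when any single Ctrl heart, or hMut 3 alone, was left out. Hexa and Gusb followed at 0.23 and 0.21 (adjusted p = 0.119 and 0.164), and the median was 0.07. Of 22 lysosomal membrane and luminal proteins 0 passed, with Tmem192, Npc1 and Ctns at log2 fold changes of 0.18, -0.35 and 0.14 (adjusted p = 0.102, 0.149 and 0.172 in edgeR's test) and a median of -0.01. Of 19 transcription factors and regulators of the lysosome, TFEB and its relatives included, 0 passed and the median was 0.01. Fnip1, Mitf and Rragc had log2 fold changes of -0.25, -0.24 and 0.17 (adjusted p = 0.0613, 0.0880 and 0.0986 in edgeR's test).

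Of 13 further cathepsin genes in the table, 3 were tested and 0 passed. Ctsf, a cysteine protease of lysosomes, was at 38.8 ± 5.78 CPM in hMut and 45.957 ± 2.98 CPM in Ctrl, and 5 of 9 hMut hearts lay below every Ctrl heart (log2 fold change -0.24, adjusted p = 0.0853 in edgeR's test). Ctsw, known from cytotoxic lymphocytes, ran from 2 to 30 counts in Ctrl hearts and reached 232 counts in hMut 6 (log2 fold change 1.20, adjusted p = 0.250). Ctse had a log2 fold change of 0.12 (adjusted p = 0.892). The genes Cts8, Ctsll3, Ctsm and Ctsr had 0 counts in all 17 hearts.

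The genes with patterns most like each member were sought by Spearman's rho of log2 CPM over the 17 hearts, which share group, depth and cell make-up, so that rho is a description. For Ctsl these were Yars (0.949), Ybx3 (0.946) and Gyg (0.941), and for Ctsd Nmt1 (0.951), Aars (0.927) and Rrp12 (0.919). For Ctss they were Akna (0.968), Yju2 (0.958) and Fyb (0.951), for Ctsc Sema4a (0.929), Tlr1 (0.924) and Coro1a (0.917), and for Ctsz Acsl5 (0.958), Rpl19 (0.949) and Msn (0.946). Ctsa was closest to Septin3 (0.914), Nubp2 (0.902) and Spsb2 (0.900), and Ctsk to Spsb2 (0.909), Hgs (0.900) and Septin3 (0.873). Ctsh was closest to Pla2g15 (0.931), Ankle1 (0.870) and Hnrnpu (0.846), Ctso to Casp2 (0.902), Rab39 (0.882) and Coro7 (0.865), and Ctsb, with the weakest likeness, to Oasl1 (0.826), Uckl1 (0.826) and Gm20257 (0.809). No member was among the 3 most alike genes of another member.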

How the data were processed

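Poly(A) RNA from the heart tissue of 17 mice was sequenced by the authors, with reads filtered by fastp, mapped to GRCm39 by HISAT2 2.2.1 and counted per gene by featureCounts 2.0.6. The deposited values are these raw counts, not normalized. The strand setting and annotation release are not given in the sources used here. Groups and replicate numbers follow the labels.

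Counts were tested with edgeR 4.0.16 in R 4.3.3 (TMM, filterByExpr, quasi-likelihood test, group as the only term, Benjamini-Hochberg adjustment over 16195 genes, threshold 0.05). Standard errors were derived from the fold change and its F statistic. On simulated counts, 162 of 200 genes changed by 1 on the log2 scale were called (81%), with 9 unchanged genes. TPM used the deposited gene length. The 95% intervals of fold changes come from this fit and reflect the spread between hearts.

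The members and lists were chosen with earlier results of these data known. Named genes are the members, the 3 with the smallest adjusted p of each list discussed and any that passed, the 3 most alike each member, and Polg. Alternatives were DESeq2 1.42.0, RLE and upper-quartile factors, nuclear protein-coding genes only, other filters on low counts, limma-voom with quality weights (limma 3.58.1), sex, read from Xist and Y-linked counts (3 of 8 Ctrl and 2 of 9 hMut female), as a covariate, a replicate block, each heart left out, and 2 pairs of hearts left out. Protein sequences were not used here.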

Additional observations from a re-analysis of the deposited data

Results flagged for a closer look

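A heart far from the others of its group was sought for each of the 10 members in each group. These were 20 tests, where chance alone gives about 1 in 20. The tests reuse the same 17 hearts and are not independent of each other. All 5 hits were hMut 6. It held 126.45 CPM of Ctsc, with the next hMut heart at 70.8 CPM, 47.495 CPM of Ctsh (next 35.298 CPM) and 30.558 CPM of Ctso (next 21.436 CPM). For Ctss it held 219.88 CPM (next 56.667 CPM) and for Ctsz 94.422 CPM (next 57.546 CPM). The same heart had the highest summed macrophage, MHC class II, fibroblast and lymphoid markers of all 17, and their part in these values was not tested.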

How the results depend on the processing

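Ctsl passed the threshold under all 28 alternatives, with a log2 fold change of 0.41 to 0.51 and an adjusted p of 4.46e-05 to 0.0382. Ctsd passed under 10 of 28. With each heart left out in turn its log2 fold change ran from 0.16 to 0.20, and it was lost under upper-quartile factors (0.16), no filter on low counts (0.18), sex as a covariate (0.17), and without hMut 6 and 9 (0.15) or Ctrl 2 and 3 (0.15). Ctsz passed with DESeq2 (0.59), with limma-voom (0.34) and without hMut 2, and ran from 0.36 to 0.68 with each heart left out. Ctsh turned negative with upper-quartile factors (-0.0104), limma-voom (-0.0778), sex as a covariate (-0.0094) and without hMut 6 and 9 (-0.11), and ran from -0.0766 to 0.0344 with each heart left out. Ctso was -0.0501 with limma-voom, -0.0740 without hMut 6 and 9, and ran from -0.0516 to 0.0771 with each heart left out. Ctss, which passed under 0 of 28, ran from 0.08 to 1.33. Without hMut 6 and 9, Ctsb was -0.0016 and Ctsc -0.0157. The members past the threshold numbered 3 with DESeq2 and with limma-voom, 1 with upper-quartile factors, no filter, sex as a covariate, and without hMut 6 and 9 or Ctrl 2 and 3, and 1 to 3 with each heart left out. Over all genes, 749 passed, against 1533 with DESeq2, 463 with no filter, 2081 with limma-voom, 431 without hMut 6 and 9, 373 without Ctrl 2 and 3, and 395 (without hMut 5) to 1792 (without hMut 2) with each heart left out. The cause of these shifts was not tested.

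Same-numbered hearts of the groups do not share an animal, and the labels name no pairing. The correlation of their deviations ran from -0.23 to 0.34, over 0.1 in 1 of 8 pairs. This check cannot exclude a shared litter or batch. With the replicate block, 195 genes and 1 member (Ctsl) passed, Ctsd had a log2 fold change of 0.16 and Ctsh of -0.0255.

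Counts of the 18 related lists stayed within 1.5 times the reported count in 362 of 504 recomputations. These include lists whose count was 0 and stayed at 0, so the number says little about the calls. The hydrolase count and the smooth muscle and pericyte count each went from 1 to 0 with upper-quartile factors. Both were also 0 with no filter on low counts and with sex as a covariate, whereas the cardiomyocyte count went from 0 to 5 with DESeq2. The design cannot tell cell make-up from regulation, and overlapping features limit Ctsa, Ctsb, Ctsd, Ctsl, Ctss and Ctsz.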

Other observations

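Other cell types of the heart were described by marker lists in the same fit. Among 10 endothelial genes 2 were higher in hMut, Eng, a co-receptor of TGF-β family ligands (log2 fold change 0.35, adjusted p = 0.0371 in edgeR's test), and Kdr, a VEGF receptor (0.39, adjusted p = 0.0407), followed by Pecam1 (0.14, adjusted p = 0.105). Their sum was 1419 CPM in hMut 6 and 1794 CPM in hMut 9, against a Ctrl median of 1492 CPM. Among 10 smooth muscle and pericyte genes 1 was higher, Pdgfrb (0.24, adjusted p = 0.0442 in edgeR's test), with Abcc9 at -0.27 and Cspg4 at 0.19. None of these 3 calls was made without hMut 6 and 9. These calls also depended on Ctrl hearts. Pdgfrb was not called when any single Ctrl heart was left out. Neither endothelial gene was called when Ctrl 1, 2, 5, 6, 7 or 8 was left out alone. Of 14 cardiomyocyte genes 0 passed, with Myh6, Tnni3 and Pln at log2 fold changes of -0.34, -0.43 and -0.35 (adjusted p = 0.0601, 0.0629 and 0.0689 in edgeR's test), and Tnni3 lay below every Ctrl heart in 8 of 9 hMut hearts. Of 9 tested neutrophil and mast cell genes 0 passed.

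Among 5 tested genes listed as atrial markers, Bmp10 was at 10.6 ± 7.85 CPM in hMut and 0.216 ± 0.0845 CPM in Ctrl, a log2 fold change of 5.58 (adjusted p = 3.25e-05 in edgeR's test), with 9 of 9 hMut hearts above every Ctrl heart, and 5.15 (adjusted p = 4.06e-05) without hMut 6 and 9. The list summed to 729.84 CPM in hMut 6 and 475.27 CPM in hMut 9, against 80.71 to 209 CPM in Ctrl. Most of both sums was Nppa, at 684.88 and 423.02 CPM, which the paper uses as a cardiac stress marker. In each of these hearts 2 genes of the list exceeded all Ctrl hearts. The 5 tested genes had a median log2 fold change of 0.14, and Nr2f2 was at -0.19 (adjusted p = 0.186 in edgeR's test). Whether these hearts held more atrial tissue was not tested.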
